A study of Mus musculus with 76 samples.

Results

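The 9 long noncoding RNA genes of the mouse brain described here are Malat1, Neat1, Miat, Sox2ot, Rmst, Pantr1, Dlx6os1, Gas5 and Snhg11. They were chosen by name as widely studied neural long noncoding RNAs, with earlier results of these data known. All 9 were found among the 56923 genes of the count files, of which 11140 are annotated as long noncoding RNA (lncRNA). Such a gene is transcribed and usually spliced like a messenger RNA, but its transcript encodes no known protein. Malat1 and Neat1 RNA stay in the nucleus, Malat1 in nuclear speckles and Neat1 as the scaffold of paraspeckles, and Miat RNA forms nuclear bodies in neurons. Gas5 and Snhg11 carry small nucleolar RNAs (snoRNAs) in their introns, and Sox2ot, Pantr1 and Dlx6os1 are transcribed beside or across genes of transcription factors that pattern the embryonic brain.

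The study replaced the mouse copy of an enhancer on chromosome 13, named hs754, with its human counterpart, and profiled the diencephalon, the part of the forebrain that forms the thalamus and hypothalamus. Embryos of humanized homozygous crosses and of wild type homozygous crosses, all on the C57BL/6J background, were collected at the embryonic days (E) E11.5 and E17.5. Each replicate is a pool of the tissue of 6 embryos at E11.5 or 3 embryos at E17.5, taken from a single litter, so individual embryos, their sexes and differences within a litter are not seen. The 16 RNA samples hold 4 replicates of each genotype and stage, and polyA-selected RNA was sequenced. Chromatin immunoprecipitation was done for H3K27ac, H3K4me3 and H3K27me3 with 2 replicates of each genotype at the early stage and 3 at the late stage, and for the architectural protein CTCF with 3 of each genotype at E17.5 only. No member lies on chromosome 13. The series has 76 samples in all, and the sequenced inputs were not analysed here.

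Read pairs assigned to genes without regard to strand ranged from 16414369 to 24272569 per RNA sample, and those on the sense strand alone from 16655165 to 24684099. Levels are given as CPM, counts scaled to a library of 10⁶ reads on genes, from these unstranded counts, normalised by the trimmed mean of M-values (TMM), unless the sense strand is named. A difference is called when its p from edgeR's quasi-likelihood test, adjusted by the Benjamini-Hochberg method over all genes tested, is under 0.05. Differences are E17.5 over E11.5 on the log2 scale, each with its standard error (SE).

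Wild type E17.5 replicate 1 stands apart from its group. Its log2 CPM over genes correlated with the mean of the other 3 replicates at r = 0.9395, whereas the other 15 samples reached 0.9787 to 0.9935 against their own groups, a correlation across genes, which are not independent replicates. The root mean square of its log2 differences from that mean was 1.083, against 0.351 to 0.6 in the others. Reads on no annotated feature made up 4.29% of its reads, against 8.73% to 12.2% in the other E17.5 samples. Its 4 microglia markers summed to 68.1 CPM against 31.3 to 32.8 in the other wild type E17.5 replicates, its 5 blood markers to 283.2 against 59.1 to 107.1, and its 4 endothelial markers to 273.6 against 145.3 to 173.4. Its sums were also above the other 3 for markers of progenitors (890.9 against 593.2 to 678.3), the telencephalon (115.6 against 72.2 to 75.8), the oligodendrocyte lineage (250.1 against 199.3 to 209.4), meninges with pericytes (561.6 against 430.8 to 479.5) and the diencephalon (1720.3 against 1452.1 to 1691.3), and within their range for neurons, astrocytes, the choroid plexus and the midbrain with hindbrain. The 9 lncRNAs together summed to 1240.0 CPM in it, against 4099.5 to 4168.7 in the other 3. The part of these differences in the results was not tested, and wild type stage differences of named genes and lists are given with and without this library.

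The first comparison asks how the lncRNAs differ between early and late development of the diencephalon. In wild type RNA, 2 members were higher at E17.5 (Snhg11 and Dlx6os1) and 2 lower (Miat and Pantr1), where 29.0% of the 18583 genes tested were higher and 26.7% lower. Without wild type E17.5 replicate 1, 5 members were higher (Snhg11, Dlx6os1, Malat1, Sox2ot and Neat1) and the same 2 lower, against 36.0% and 36.3% of 19351 genes. Humanized RNA, which shares no sample with the wild type comparison, gave 5 higher and 2 lower, namely the same members, against 38.2% and 39.5% of 18781 genes. The members' median log2 difference was 0.37 in wild type RNA, 0.62 without replicate 1 and 0.92 in humanized RNA, where the medians over all genes were -0.01, -0.04 and -0.04. All 9 members passed the filter on low counts in each of these comparisons. In pooled tissue, fewer cells of a type and less RNA per cell cannot be told apart.

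**Figure D1:**
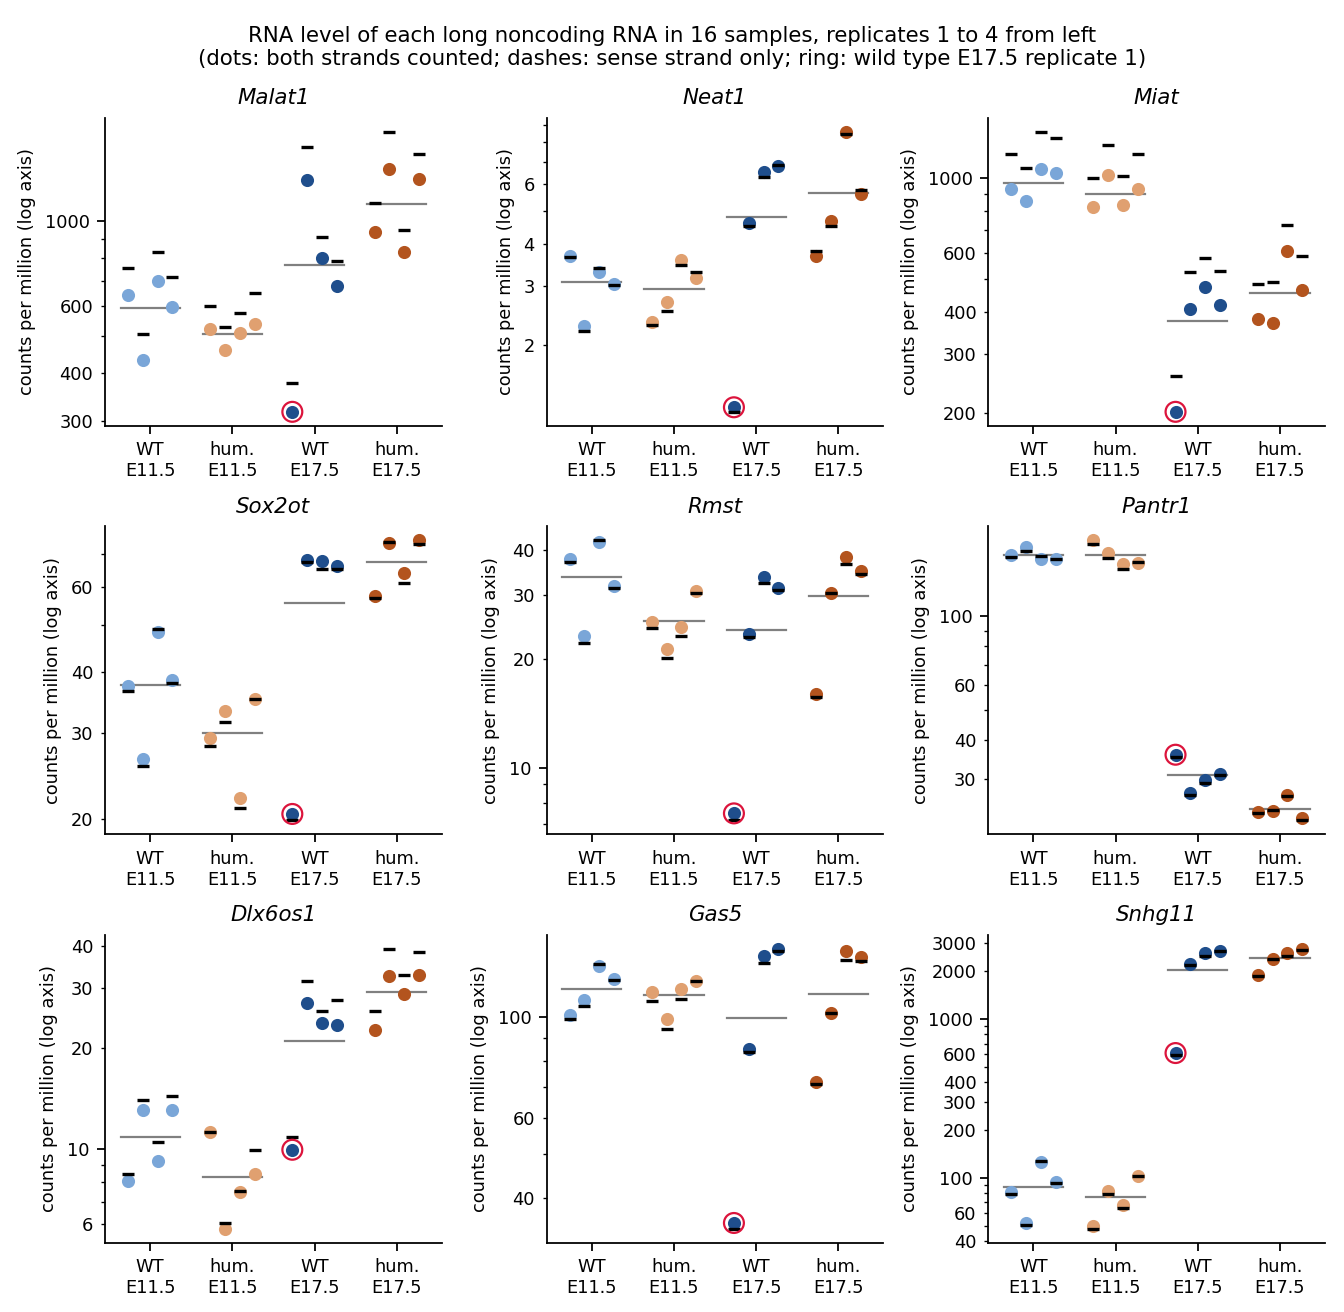
Level of each lncRNA in every RNA sample, in TMM-normalised CPM on a log axis, with replicates 1 to 4 from left to right in each group. Dots count both strands, dashes the sense strand alone and grey lines are group means, and the ring marks wild type E17.5 replicate 1, the lowest of its group for 8 members and the highest for Pantr1.

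**Figure D2:**
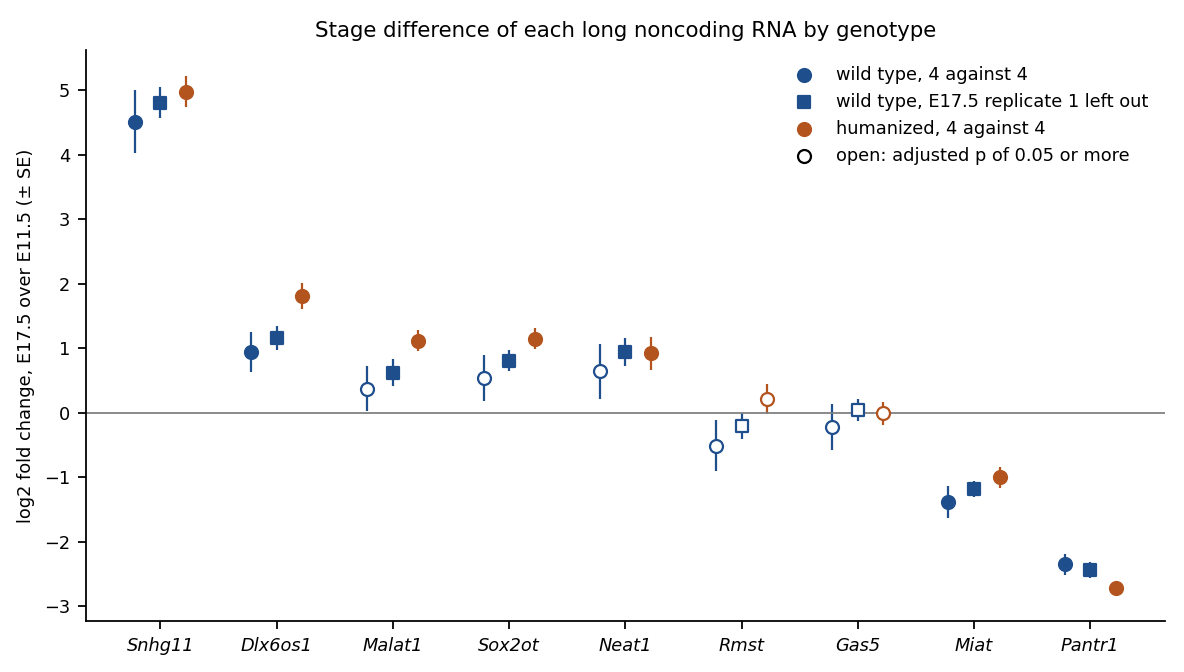
Log2 difference between E17.5 and E11.5 for each lncRNA, with bars of 1 standard error, in wild type RNA with 4 replicates per stage, in wild type RNA without E17.5 replicate 1, and in humanized RNA. Filled markers have an adjusted p under 0.05, and Snhg11 reaches 4.51, 4.81 and 4.98 from these fits.

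Snhg11 and Gas5 are the snoRNA hosts among the members, with 2 and 10 annotated snoRNAs inside them. Snhg11 (ENSMUSG00000044349.17, GRCm39 chr2:158217558-158228071, plus strand) stood at 80.9, 51.9, 125.4 and 93.6 CPM in wild type E11.5 replicates 1 to 4 and at 49.7, 82.6, 67.0 and 102.8 in the humanized ones. At E17.5 it reached 611.2, 2218.1, 2592.5 and 2704.6 CPM in wild type and 1907.1, 2384.3, 2597.6 and 2785.7 in humanized samples. Every E17.5 sample lay above every E11.5 sample in each genotype, and wild type E17.5 replicate 1 was the lowest of the late samples. The log2 difference was 4.51 (SE 0.49, 22.8-fold, adjusted p = 2.39e-05) in wild type RNA, 4.81 (SE 0.24, adjusted p = 4.61e-09) without that library, and 4.98 (SE 0.24, 31.6-fold, adjusted p = 5.04e-09) in humanized RNA. Over 14 alternative settings its adjusted p ranged from 5.86e-27 to 0.000224 in wild type and from 3.34e-132 to 7.68e-08 in humanized RNA.

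Gas5 (ENSMUSG00000053332.15, chr1:160861793-160866118, plus strand), whose RNA accumulates when growth is arrested, did not pass the test in either genotype. Its E11.5 levels were 101.0, 108.8, 129.2 and 121.2 CPM in wild type and 113.1, 98.7, 114.9 and 119.9 in humanized samples. At E17.5 they were 35.2, 84.9, 136.3 and 141.3 CPM and 71.7, 101.7, 139.3 and 135.2. The stages overlapped in each genotype, with the late samples lying on both sides of the early ones. The log2 difference of Gas5 was -0.22 (SE 0.36, adjusted p = 0.619) in wild type RNA, 0.05 (SE 0.17, adjusted p = 0.796) without replicate 1, and -0.01 (SE 0.18, adjusted p = 0.957) in humanized RNA, and over the alternatives it ran from -0.44 to 0.05 and from -0.13 to 0.15, with adjusted p from 0.304 to 0.842 and from 0.33 to 0.991.

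Of 18 other snoRNA host genes listed, 16 were tested, and in wild type RNA 1 rose, 6 fell and 9 were not called, with a median log2 difference of -0.52, where 26.7% of all genes fell. In humanized RNA 1 rose, 9 fell and 6 were not called, with a median of -0.75, where 39.5% of all genes fell. Without wild type E17.5 replicate 1 the wild type counts were 2 and 6, with a median of -0.37. In that fit 36.0% of all genes rose and 36.3% fell. Snhg14, the host of the imprinted snoRNA clusters of the Prader-Willi region, rose by 2.7 (SE 0.45, adjusted p = 0.000497) in wild type and 3.41 (SE 0.33, adjusted p = 1.53e-06) in humanized RNA, from means of 30.2 and 25.0 CPM to 198.3 and 269.9. Snhg1 fell by 1.42 (SE 0.38) and 1.20 (SE 0.24), and Snhg7 by 0.98 (SE 0.19) and 1.04 (SE 0.20), on the log2 scale. Snhg16 fell by 0.66 (SE 0.20, adjusted p = 0.0171) and 0.87 (SE 0.32, adjusted p = 0.0248), from means of 5.48 and 5.79 CPM to 3.48 and 3.16. Its wild type call was lost without wild type E17.5 replicate 2 (-0.59, adjusted p = 0.0534) and in 3 other settings, and its humanized call without humanized E11.5 replicate 3 (-0.75, adjusted p = 0.0675), where the alternatives ranged from 0.00206 to 0.0562 and from 0.000936 to 0.0675. Without wild type E17.5 replicate 1 the wild type differences were 2.99 for Snhg14, -1.15 for Snhg1, -0.89 for Snhg7 and -0.58 for Snhg16, all called. Summed over the 18 genes, the level was 249.1, 258.3, 268.8 and 269.6 CPM in wild type E11.5 samples and 164.9, 378.5, 401.6 and 444.5 at E17.5, with Snhg14 the most abundant late and Snhg1 early.

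Among the RNAs of nuclear bodies, Miat was the highest at E11.5 and fell. Miat (ENSMUSG00000097767.10, chr5:112361094-112377261, minus strand) had 930.6, 856.8, 1064.2 and 1037.7 CPM in wild type and 819.1, 1025.1, 830.7 and 927.0 in humanized E11.5 samples. At E17.5 it had 201.4, 409.4, 474.7 and 418.4 CPM in wild type and 380.3, 371.0, 608.9 and 464.5 in humanized samples. No late sample reached the lowest early one in either genotype. The log2 difference was -1.38 (SE 0.25, 2.61-fold lower, adjusted p = 0.000922) in wild type RNA, -1.18 (SE 0.12, adjusted p = 2.11e-06) without replicate 1 and -1.0 (SE 0.16, 1.99-fold lower, adjusted p = 8.98e-05) in humanized RNA, with adjusted p from 1.93e-06 to 0.00402 and from 9.06e-10 to 0.000665 over the alternatives.

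Malat1 (ENSMUSG00000092341.5, chr19:5845717-5853602, minus strand) makes a transcript whose 3′ end is cut by RNase P and lacks a conventional polyA tail, and the part of the polyA selection in its counts was not tested. It stood at 640.0, 434.3, 695.9 and 597.2 CPM in wild type E11.5 samples and at 316.9, 1282.0, 803.7 and 676.6 at E17.5. The humanized samples gave 523.2, 459.2, 508.5 and 539.9 CPM early, then 935.8, 1373.6, 832.9 and 1290.8 late. The stages did not overlap in humanized samples, whereas in wild type samples E17.5 replicate 1 was below every early sample and replicate 4 below the highest early one. Malat1 rose by 1.12 (SE 0.17, 2.17-fold, adjusted p = 5.58e-05) in humanized RNA, and its wild type difference was 0.37 (SE 0.35, adjusted p = 0.4), or 0.62 (SE 0.21, adjusted p = 0.0174) without replicate 1. Over the alternatives the adjusted p ran from 1.74e-10 to 0.00235 in humanized RNA and from 0.0174 to 0.917 in wild type RNA, and the interaction of stage and genotype was 0.75 (SE 0.41, adjusted p = 0.462), or 0.49 (SE 0.28, adjusted p = 0.783) without wild type E17.5 replicate 1, so a difference between the genotypes was not shown.

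Neat1 (ENSMUSG00000092274.5, chr19:5874736-5897132, minus strand) lies on the same strand as Malat1, 43530 bp away between their canonical starts. It had few reads, from 25 in wild type E17.5 replicate 1 to 161 in replicate 4, so counting error is large for it. Its levels were 3.69, 2.28, 3.29 and 3.04 CPM in wild type and 2.34, 2.69, 3.57 and 3.16 in humanized E11.5 samples, then 1.31, 4.62, 6.52 and 6.79 and 3.68, 4.67, 8.6 and 5.61 at E17.5. Wild type E17.5 replicate 1 was the single late sample that was not above every early sample of its genotype. Neat1 rose by 0.92 (SE 0.26, 1.9-fold, adjusted p = 0.00613) in humanized RNA, and its wild type difference was 0.64 (SE 0.42, adjusted p = 0.224), or 0.94 (SE 0.22, adjusted p = 0.0017) without replicate 1. The alternatives gave adjusted p from 0.00131 to 0.0311 and from 0.0017 to 0.469, and the interaction was 0.29 (SE 0.52, adjusted p = 0.758), or -0.02 (SE 0.35, adjusted p = 0.992) without replicate 1.

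A list of 14 genes holds proteins that bind Neat1, Malat1, Miat or Rmst RNA or sit in the same bodies. In wild type RNA 0 of the 14 rose and 9 fell by edgeR, with a median of -0.90, where 26.7% of all genes fell. In humanized RNA 1 rose and 10 fell, with a median of -0.84, where 39.5% of all genes fell. Without wild type E17.5 replicate 1, 0 rose and 11 fell, where 36.3% of all genes fell. Nono, a core protein of paraspeckles, fell by 1.40 (SE 0.26, adjusted p = 0.000965) and 1.70 (SE 0.11, adjusted p = 3.6e-08), from means of 1032.5 and 1077.5 CPM to 394.8 and 334.9. Rbm14, which paraspeckles need, fell by 1.25 (SE 0.25) and 1.68 (SE 0.12), the splicing factor Sf1 by 1.17 (SE 0.26) and 1.65 (SE 0.11), and the speckle protein Srsf2 by 1.31 (SE 0.16) and 1.55 (SE 0.10). Without wild type E17.5 replicate 1 the wild type differences were -1.75 for Nono, -1.55 for Rbm14, -1.52 for Sf1 and -1.41 for Srsf2. The sum over the list was 8997.1, 8519.3, 9463.1 and 8886.0 CPM in wild type E11.5 samples and 4681.3, 5052.5, 4858.5 and 4922.9 at E17.5, and wild type E17.5 replicate 1 was the lowest here as well.

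Sox2ot, Pantr1 and Dlx6os1 lie beside transcription factor genes, and Rmst RNA binds the Sox2 protein. Pantr1 (ENSMUSG00000060424.16, chr1:42629754-42734584, minus strand) starts 117 bp from Pou3f3 (also Brn1) on the opposite strand. It had 157.1, 166.8, 153.0 and 152.4 CPM in wild type and 175.4, 159.4, 146.7 and 148.4 in humanized E11.5 samples, and 36.0, 27.1, 29.8 and 31.2 and 23.6, 23.7, 26.7 and 22.5 at E17.5. Early and late samples were far apart in each genotype, and wild type E17.5 replicate 1 was the highest late sample. Pantr1 fell by 2.35 (SE 0.16, 5.11-fold lower, adjusted p = 1.5e-06) in wild type RNA and by 2.72 (SE 0.11, 6.58-fold lower, adjusted p = 1.45e-09) in humanized RNA, and its difference without that library was -2.44 (SE 0.12, adjusted p = 3.63e-09), with adjusted p from 4.95e-43 to 3.37e-05 and from 1.86e-108 to 5.11e-08 over the alternatives. Pou3f3 fell by 1.46 (SE 0.18, adjusted p = 6.03e-05) and 1.43 (SE 0.11, adjusted p = 1.45e-07), with -1.61 in wild type RNA without that library.

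Dlx6os1 (ENSMUSG00000090063.8, chr6:6749740-6871632, minus strand), also known as Evf2, is transcribed across Dlx6, from the opposite strand, and starts 12541 bp from Dlx5; these are homeobox genes of forebrain GABAergic neurons. Its wild type levels were 8.05, 13.1, 9.26 and 13.1 CPM early and 9.98, 27.1, 23.6 and 23.3 late. In humanized samples they were 11.3, 5.83, 7.5 and 8.44 CPM and then 22.6, 32.5, 28.9 and 32.9. The stages overlapped through wild type E17.5 replicate 1 alone. Dlx6os1 rose by 0.94 (SE 0.31, 1.92-fold, adjusted p = 0.0236) in wild type RNA, by 1.16 (SE 0.18, adjusted p = 8.47e-05) without that library, and by 1.81 (SE 0.20, 3.5-fold, adjusted p = 5.02e-06) in humanized RNA. The wild type call was lost without wild type E11.5 replicate 1 (0.79, adjusted p = 0.0765) or 3 (0.85, 0.0633), and without wild type E17.5 replicate 2 (0.83, 0.0641), 3 (0.90, 0.0563) or 4 (0.88, 0.0557), which left 1 member higher in each case. The alternatives ranged from 8.47e-05 to 0.0765 in wild type and from 1.55e-17 to 4.26e-05 in humanized RNA. Dlx6 rose by 2.28 (SE 0.23, adjusted p = 1.44e-05) and 2.79 (SE 0.27, adjusted p = 1.37e-06), with 2.23 in wild type RNA without E17.5 replicate 1.

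Dlx5 rose by 0.89 (SE 0.30, adjusted p = 0.0261) in wild type RNA and 0.66 (SE 0.25, adjusted p = 0.0306) in humanized RNA. Both calls were near the threshold and were lost when any of several libraries was left out. The wild type call of Dlx5 was lost without wild type E11.5 replicate 1 (0.83, adjusted p = 0.0758), 3 (0.72, 0.0793) or 4 (0.89, 0.061), and without wild type E17.5 replicate 1 its difference was 0.57 (adjusted p = 0.0289). The humanized call was lost without humanized E11.5 replicate 2 (0.58, adjusted p = 0.0835), 3 (0.54, 0.0965) or 4 (0.48, 0.0859), without humanized E17.5 replicate 1 (0.63, 0.063), 3 (0.62, 0.0676) or 4 (0.66, 0.0569), and in the fit of all 16 samples (0.67, 0.0557). The adjusted p over all alternatives for Dlx5 ran from 0.013 to 0.0793 and from 0.000172 to 0.0965.

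Sox2ot (ENSMUSG00000105265.7, chr3:34158419-34789489, plus strand) spans 631071 bp with 25 annotated starts and holds the whole Sox2 gene, which lies on the same strand. It had 37.5, 26.6, 48.4 and 38.5 CPM in wild type and 29.4, 33.3, 22.1 and 35.3 in humanized E11.5 samples. At E17.5 it had 20.5, 68.1, 67.7 and 66.1 CPM in wild type and 57.5, 73.8, 63.9 and 74.7 in humanized samples. Wild type E17.5 replicate 1 was below every early sample, and the other late samples were above all early ones of their genotype. Sox2ot rose by 1.15 (SE 0.16, 2.22-fold, adjusted p = 3e-05) in humanized RNA, and its wild type difference was 0.54 (SE 0.35, adjusted p = 0.212), or 0.81 (SE 0.17, adjusted p = 0.000728) without replicate 1. The alternatives gave 9.42e-12 to 0.00166 and 0.000728 to 0.381, and the interaction was 0.61 (SE 0.40, adjusted p = 0.468), or 0.33 (SE 0.24, adjusted p = 0.783) without replicate 1. Sox2, a transcription factor of neural progenitors, moved the other way and fell by 0.65 (SE 0.17, adjusted p = 0.00885) in wild type and 0.77 (SE 0.11, adjusted p = 3.34e-05) in humanized RNA, with -0.81 in wild type RNA without replicate 1.

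Rmst (ENSMUSG00000112117.4, chr10:91906899-92001132, minus strand) holds the microRNA genes Mir1251 and Mir135a-2. It had 37.9, 23.2, 42.3 and 31.9 CPM in wild type and 25.4, 21.3, 24.5 and 30.8 in humanized E11.5 samples, and 7.47, 23.5, 33.8 and 31.4 and 16, 30.4, 38.3 and 35.0 at E17.5. The stages overlapped in each genotype. The log2 difference of Rmst was -0.51 (SE 0.40, adjusted p = 0.298) in wild type RNA, -0.21 (SE 0.20, adjusted p = 0.344) without replicate 1 and 0.21 (SE 0.23, adjusted p = 0.412) in humanized RNA. Without humanized E17.5 replicate 1 it was 0.42 (SE 0.16, adjusted p = 0.0285) and passed, where the humanized alternatives ranged from 0.0285 to 0.783 and the wild type ones from 0.201 to 0.462.

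Of the 9 coding neighbours listed, 3 were higher and 4 lower at E17.5 in wild type RNA, 4 and 5 without replicate 1, and 4 and 5 in humanized RNA, where 29.0% and 26.7%, 36.0% and 36.3%, and 38.2% and 39.5% of all genes were. Zbtb37 starts 625 bp from Gas5 on the opposite strand and rose by 1.75 (SE 0.41, adjusted p = 0.00441) and 2.58 (SE 0.25, adjusted p = 1.37e-06). Frmd8, 2597 bp from Neat1, fell by 1.29 (SE 0.29, adjusted p = 0.00317) and 2.08 (SE 0.20, adjusted p = 1.23e-06), and Nedd1, 519239 bp from Rmst, by 1.95 (SE 0.36, adjusted p = 0.0009) and 1.55 (SE 0.19, adjusted p = 8.76e-06). In wild type RNA without replicate 1 the differences were 2.02 for Zbtb37, -1.65 for Frmd8 and -1.69 for Nedd1. Ralgapb, 23631 bp from Snhg11, rose by 0.85 (SE 0.13, adjusted p = 7.72e-05) in humanized RNA, and its wild type difference was 0.30 (SE 0.23, adjusted p = 0.278), or 0.47 (adjusted p = 0.00636) without replicate 1, over a range of 0.00636 to 0.477. The interaction was 0.55 (adjusted p = 0.462) for Ralgapb. A lncRNA and its neighbour were called in the same direction in humanized RNA for Pantr1 with Pou3f3, Dlx6os1 with Dlx6 and Dlx5, and Snhg11 with Ralgapb, and in opposite directions for Sox2ot with Sox2 and Neat1 with Frmd8.

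Of 16 lncRNAs listed as beside neural transcription factor genes, 13 were matched by name (Six6os1, Fezf1os and Zic4os were not). The position of each was not checked, and the list also holds Tunar and host genes of microRNAs. In wild type RNA 4 of 10 tested rose and 5 fell, with a median of -0.51, and in humanized RNA 4 of 11 rose and 4 fell, with a median of 0.02. Without wild type E17.5 replicate 1, 4 of 11 rose and 6 fell. Of all genes 29.0% rose and 26.7% fell in wild type RNA, 36.0% and 36.3% without that library and 38.2% and 39.5% in humanized RNA, which is also the background of the next list. Tunar, an RNA of pluripotent and neural cells, rose by 4.19 (SE 0.28, adjusted p = 1.25e-06) and 4.25 (SE 0.26, adjusted p = 2.83e-08), and Sox1ot, which overlaps Sox1, by 2.18 (SE 0.17) and 2.39 (SE 0.14). Pantr2, the lncRNA next to Pantr1, fell by 2.14 (SE 0.25) and 1.69 (SE 0.20), and Otx2os1, opposite Otx2, by 2.11 (SE 0.24) and 1.85 (SE 0.20). Among 15 other widely studied lncRNAs, 7 rose and 3 fell in wild type RNA (median 0.57), 10 and 3 without replicate 1 and 11 and 3 in humanized RNA. The maternally expressed Meg3 rose by 3.46 (SE 0.40, adjusted p = 3.92e-05) and 4.11 (SE 0.15, adjusted p = 8.82e-10), from means of 385.7 and 315.6 CPM to 4279.8 and 5492.2. Pvt1, beside Myc, rose by 2.59 (SE 0.29) and 2.77 (SE 0.29), Crnde fell by 2.68 (SE 0.19) and 2.36 (SE 0.18), and the imprinted H19 fell by 1.73 (SE 0.31) and 2.60 (SE 0.15). Wild type differences without replicate 1 were 3.93 for Tunar, 2.25 for Sox1ot, -2.02 for Pantr2, -1.98 for Otx2os1, 3.75 for Meg3, 2.71 for Pvt1, -2.63 for Crnde and -2.17 for H19.

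Marker genes of cell types moved between the stages too, and their part in the lncRNA differences was not tested. All 8 markers of neural progenitors fell in each genotype. Their sum was 4534.9, 4565.6, 4996.2 and 4664.3 CPM in wild type E11.5 samples with Nes the most abundant, and 890.9, 678.3, 643.7 and 593.2 at E17.5 with Vim. Humanized samples gave 4520.0, 4407.4, 4608.4 and 4560.3 and then 680.0, 700.1, 666.1 and 626.3. Of 8 neuron markers 7 rose in each genotype, all but 1 of them, from sums of 2096.2, 1635.2, 2046.9 and 1707.0 CPM (Tubb3 most abundant) to 6046.3, 6428.9, 5718.2 and 6304.5 (Map2) in wild type and from 1590.9, 1984.4, 1303.5 and 1903.8 to 6505.5, 7005.2, 5609.5 and 6267.7 in humanized samples.

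Of 6 astrocyte markers 5 rose in each genotype, and Aqp4, Gfap and S100b had means under 0.5 CPM at E11.5. With Gja1 the most abundant, their sum was 128.2, 131.4, 110.6 and 134.6 CPM in wild type E11.5 samples, 124.7, 113.1, 129.8 and 116.8 in humanized ones, and 258.1, 247.3, 241.0 and 272.0 and 230.5, 223.0, 206.9 and 189.9 at E17.5. The 10 diencephalon markers were present, with Tcf7l2 the most abundant and Rax under 0.5 CPM in every group but wild type E17.5. Their sums were 1915.2, 1344.5, 1528.5 and 1309.4 CPM in wild type and 1378.6, 1357.3, 1027.5 and 1455.6 in humanized E11.5 samples, and 1720.3, 1691.3, 1614.6 and 1452.1 and 1703.7, 1815.4, 1543.3 and 1832.2 at E17.5. Of 9 tested, 2 rose and 4 fell in wild type and 5 rose and 4 fell in humanized RNA. Telencephalon markers, which would show tissue from the neighbouring forebrain, summed to 18.6 to 27.6 CPM in wild type and 15.7 to 27.4 in humanized E11.5 samples, and to 72.2 to 115.6 (the highest in wild type replicate 1) and 72.1 to 91.4 at E17.5, and 4 of 7 rose and 1 fell in each genotype.

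Markers of midbrain and hindbrain summed to 0.925 to 16 CPM over the RNA samples, Hoxb2 and Hoxa2 had 0 reads in all E17.5 samples, and of 2 tested 0 were called in wild type RNA and 1 fell in humanized RNA. Oligodendrocyte lineage markers gave 5 of 6 higher in each genotype, and 0 lower in wild type against 1 in humanized RNA. Choroid plexus markers gave 4 of 5 higher, with 0 and 1 lower, and endothelial markers 2 of 4 higher, with 0 and 2 lower. For microglia 1 of 4 was higher, with 0 and 1 lower, for meninges and pericytes 2 of 6, with 3 and 4 lower, and of 5 blood markers 0 were higher, with 2 and 4 lower. These are counts from edgeR in wild type and humanized RNA, in that order. Without wild type E17.5 replicate 1, wild type RNA had 1 lower for the oligodendrocyte lineage, choroid plexus and microglia, 2 for endothelium and 4 for meninges with pericytes and for blood, the same counts as humanized RNA, and the counts higher stayed. In that fit 3 diencephalon markers rose and 4 fell, 4 telencephalon markers rose and 2 fell, 0 of the midbrain and hindbrain markers were called, and the counts for progenitors, neurons and astrocytes stayed.

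The second comparison asks whether the humanized enhancer allele goes with different lncRNA levels. At E11.5, edgeR called 0 of the 9 members and 0 of 17816 genes (0%), with 1058 genes at an unadjusted p under 0.05, while DESeq2 called 2 genes and a fit of all 16 samples called 1, none of them a member. At E17.5 it called 0 of the 9 and 0 of 18763 genes (0%), with 207 at an unadjusted p under 0.05, and DESeq2 called 1 gene, not a member. Member differences, humanized over wild type, ran from -0.43 for Rmst (SE 0.19, adjusted p = 0.577) to -0.02 for Pantr1 (SE 0.08, adjusted p = 0.9) at E11.5. At E17.5 they ran from -0.37 for Pantr1 (SE 0.17, adjusted p = 0.808) to 0.53 for Malat1 (SE 0.36, adjusted p = 0.808), and without wild type E17.5 replicate 1 from -0.29 for Pantr1 (SE 0.11) to 0.26 for Malat1 (SE 0.23), each with an adjusted p of 1.0. Over the alternatives the adjusted p of no member went under 0.211 at the early or 0.599 at the late stage.

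The interaction asks whether the stage difference itself differs between the genotypes. By edgeR 0 of the 9 members and 0 of 20234 genes (0%) were called, with 1610 genes at an unadjusted p under 0.05, and DESeq2 called 0. Dlx6os1 had an interaction of 0.87 (SE 0.38, adjusted p = 0.462), and without wild type E17.5 replicate 1 it was 0.64 (SE 0.28, adjusted p = 0.783). Pantr1 had -0.36 (SE 0.17, adjusted p = 0.462), and -0.28 (SE 0.14, adjusted p = 0.783) without it. Member values over the 21 alternatives had adjusted p between 0.272 and 0.995. The same 3 comparisons called 0 genes by edgeR in every gene list and marker list named here.

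Levels can be compared between genes only per length of transcript, so sense-strand CPM was divided by an exon length in kb, which gives a level and not a difference. That length joins the exons of all annotated transcripts used and can exceed the transcript that is present. For Gas5 it is 4176 bp of a 4326 bp span that holds its 10 snoRNAs, and for Neat1 all 22397 bp. Values per kb can be too low for such genes, and the order was not tested with other lengths. In wild type E11.5 samples Miat led with a mean of 134.5 CPM per kb, followed by Malat1 with 89.1, Gas5 with 27.2, Pantr1 with 21.4, Snhg11 with 10.2, Rmst with 5.83, Sox2ot with 2.36, Dlx6os1 with 1.74 and Neat1 with 0.137. The ranges over replicates of Snhg11 and Rmst overlapped, as did those of Sox2ot and Dlx6os1. Humanized E11.5 samples gave the same order, with Gas5 (25.8) and Pantr1 (21.0) overlapping, as well as Sox2ot (1.84) and Dlx6os1 (1.28). At E17.5 Snhg11 stood first, with 233.5 CPM per kb in wild type and 278.5 in humanized samples, before Malat1 (115.4 and 167.6), Miat (51.4 and 62.2) and Gas5 (23.3 and 26.3). These leading genes overlapped with their neighbours in wild type samples, where replicate 1 was low, and did not in humanized samples. The next 4 were Pantr1 (4.19 and 3.28), Rmst (4.09 and 5.11), Dlx6os1 (3.52 and 5.0) and Sox2ot (3.44 and 4.19), which overlapped with their neighbours in order. Neat1 was the lowest in all 4 groups, with 0.211 and 0.252 at E17.5.

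Reads were counted both without regard to strand and for each strand, and for 3 members the choice matters for the level. The unstranded count of Miat was 77.8% of its sense-strand count early and 77.6% late in wild type samples, and 78.2% and 77.9% in humanized ones. Malat1 had 83.4% and 83.3% in wild type and 83.7% and 83.0% in humanized samples. Unstranded counting discards reads where genes on opposite strands overlap, and the exons of Miat overlap 2155 bp of Gm26953 and those of Malat1 453 bp of Gm37376 on the other strand. Dlx6os1 had 91.1% and 86.6% in wild type samples, a difference of -4.46 points (exact permutation test, two-sided, p = 0.0286, adjusted p = 0.514), and 92.2% and 84.7% in humanized samples, a difference of -7.46 points (exact p = 0.0571, adjusted p = 0.514). Means of the other 6 members lay between 98.2% and 101.3%.

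Nearly all strand-assigned reads of the members lay on their own strand. The sense share was 97.5% or more in every group mean, and the column taken as sense was chosen because it held 96.0% to 96.5% of the strand-assigned reads over all genes in each sample, since the study does not name it. Pantr1 had the largest difference, from 99.4% to 98.5% between the stages in wild type samples and from 99.4% to 97.5% in humanized samples (exact permutation test, two-sided, p = 0.0286 in each, adjusted p = 0.257). With 4 against 4 samples and 70 permutations, 0.0286 is the smallest p that this exact test can give. Over 18 tests of each measure 0 passed after adjustment by this exact test, with 2 at an unadjusted p under 0.05 for the sense share and 1 for the unstranded share, and no other tool was run on them. Stage calls in the sense-strand column numbered 2 higher and 2 lower in wild type RNA, where 5422 and 4984 of 18090 genes were, and 5 and 2 in humanized RNA, where 7029 and 7302 of 18221 were.

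Promoter peaks show which histone marks lie at the starts of these genes: H3K27ac marks active promoters and enhancers, H3K4me3 promoters, and H3K27me3 regions under Polycomb repression. A promoter is the 1000 bp to each side of any annotated start, a peak counts when it overlaps by at least 1 bp, and fold enrichment is the authors' value over local background for the strongest such peak. In the wild type lists, H3K27ac peaks lay at 7 of 9 members in every early replicate and at 9 of 9 in every late one, where 61.7% and 73.5% of 18516 genes tested for RNA had them. H3K4me3 peaks lay at 9 and 9 members (78.6% and 78.8% of genes), and H3K27me3 peaks at 6 and 4 (23.0% and 22.1%). CTCF peaks lay at 6 members at E17.5 (44.8%), namely all but Miat, Rmst and Gas5. A gene with more annotated starts has more windows in which a peak can count, and the members have from 4 (Dlx6os1) to 25 (Sox2ot). At the 5′ end alone CTCF was counted at 3 members, and the shares of all genes at that setting were not computed. Of 1704 lncRNAs tested for RNA, 58.8% and 70.8% had H3K27ac, 68.4% and 68.8% H3K4me3, and 20.7% and 20.2% H3K27me3 peaks in every replicate. With 2 against 3 replicates an exact test cannot go below p = 0.1, so peak differences between stages were not tested, and read depth cannot be taken from peak lists.

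**Figure D3:**
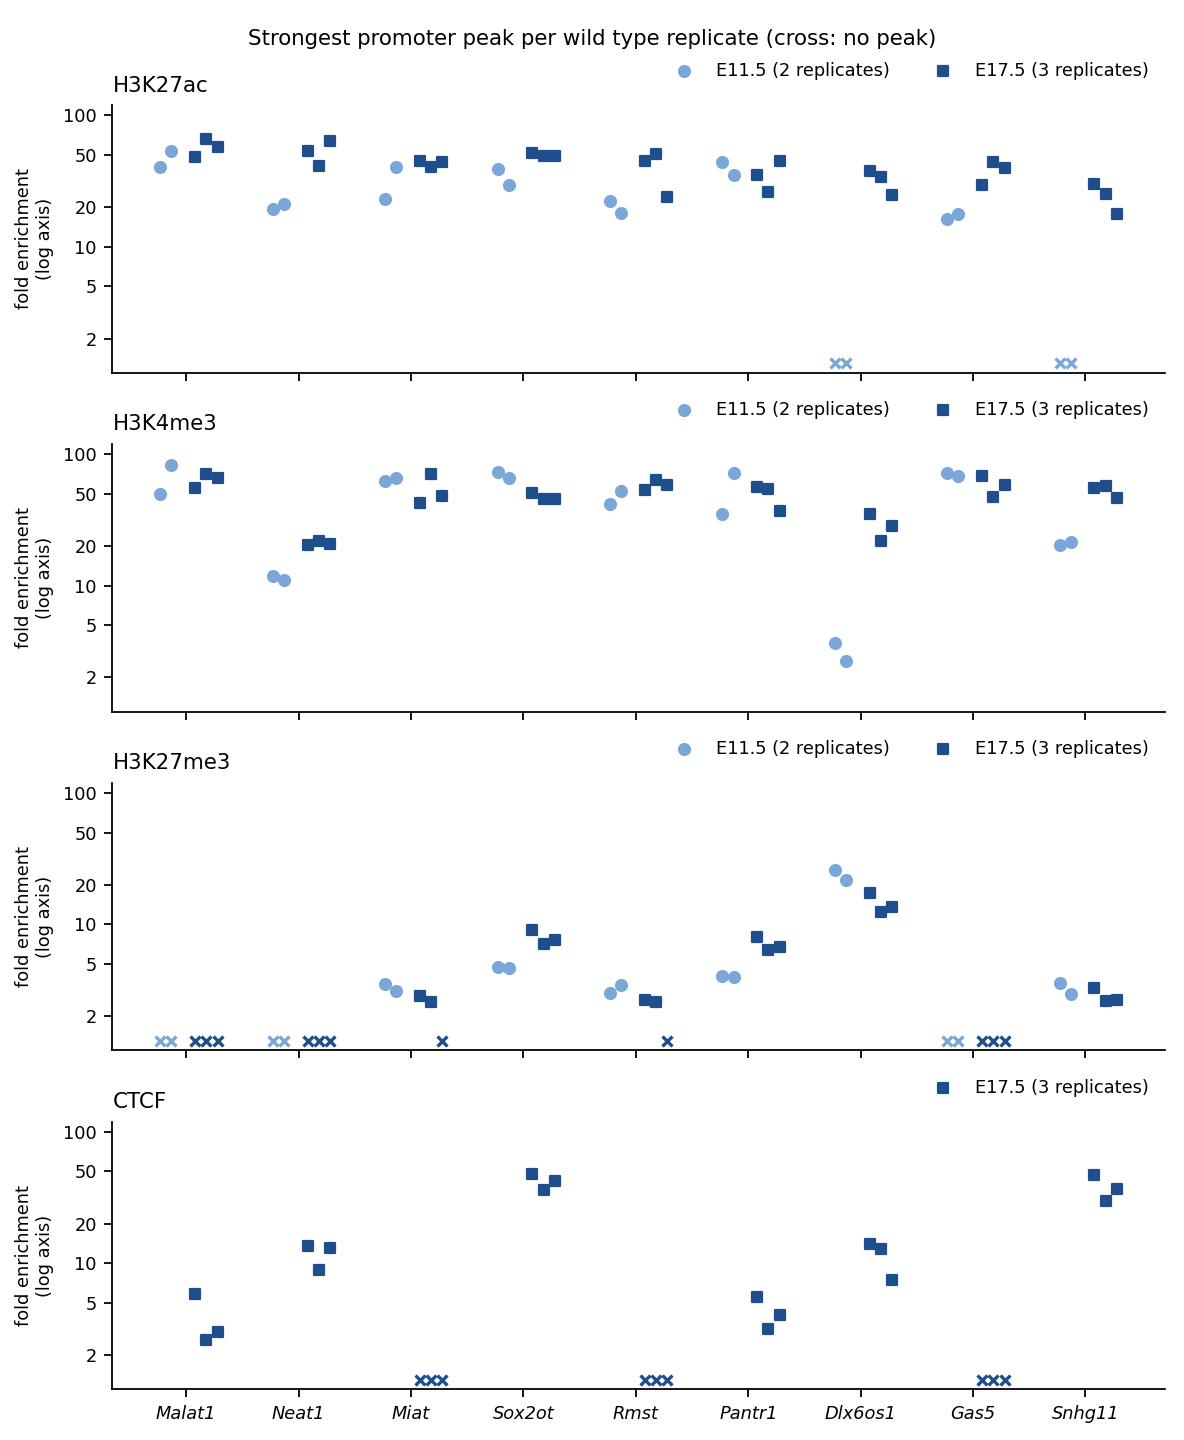
Fold enrichment, on a log axis, of the strongest promoter peak of each lncRNA in every wild type replicate, by mark and stage. Crosses mark replicates without a promoter peak, as at Snhg11 and Dlx6os1 for H3K27ac at E11.5.

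Snhg11 and Dlx6os1 had no H3K27ac promoter peak at E11.5 in any of the 2 wild type and 2 humanized replicates. Malat1, Neat1 and Sox2ot, which also rose in humanized RNA and in wild type RNA without E17.5 replicate 1, had such peaks at both stages. For Sox2ot the strongest of these lay over an internal start and was also that of Sox2. At the 5′ end of Sox2ot alone, wild type H3K27ac was absent at E11.5 and present in every replicate at E17.5, as at Snhg11 and Dlx6os1. At Snhg11, H3K27ac peaks of 30.2, 25.2 and 17.7-fold enrichment appeared in the wild type E17.5 replicates, and H3K4me3 stood at 20.2 and 21.3 early, then at 55.0, 57.2 and 46.6, while the median over all peaks of each H3K4me3 list went from 18.2 and 21.8 to 28.1, 28.1 and 29.5. The gene carried H3K27me3 peaks of low enrichment at both stages, 3.61 and 2.95 and then 3.27, 2.62 and 2.68, and a CTCF peak of 46.7, 29.9 and 36.5. The H3K27ac lists hold 36150 and 32418 peaks early and 62720, 74802 and 77419 late, so the late lists are longer throughout the genome.

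Dlx6os1 had a mixed pattern. Its H3K27me3 peak, 42088 to 46024 bp wide, had an enrichment of 26 and 21.7 early, then 17.3, 12.5 and 13.6, above 99.4% to 99.8% of the peaks of each list. At E17.5 H3K27ac peaks 28363 to 28563 bp wide covered its promoter, with 37.6, 34 and 24.9-fold enrichment. Early H3K27ac peaks lay on the same ground outside the promoter, the strongest with 4.05 and 5.36-fold enrichment in the 2 replicates. The late H3K4me3 promoter peaks were 13681 to 17041 bp wide, with 34.9, 22.0 and 28.6-fold enrichment. Early H3K4me3 peaks in the promoter itself were 288 and 380 bp wide with 3.65 and 2.67, but within the later interval stronger ones stood at 15.4 and 12.9, over the start of Dlx6. The late H3K27ac and H3K4me3 peaks and the H3K27me3 peaks of both stages were also the strongest promoter peaks of Dlx6 in all replicates, and those of H3K27ac and H3K27me3 also of Dlx5. Marks of opposite kinds thus lay at Dlx6os1 in pooled tissue, where marks in the same and in different cells cannot be told apart. With a promoter of 500 bp, at the 5′ end alone or at a -log10 q of at least 5, neither early H3K4me3 peak of Dlx6os1 was counted, and with at least a 50% overlap 1 of 2 was, so 8 of 9 members had a peak in every replicate.

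**Figure D4:**
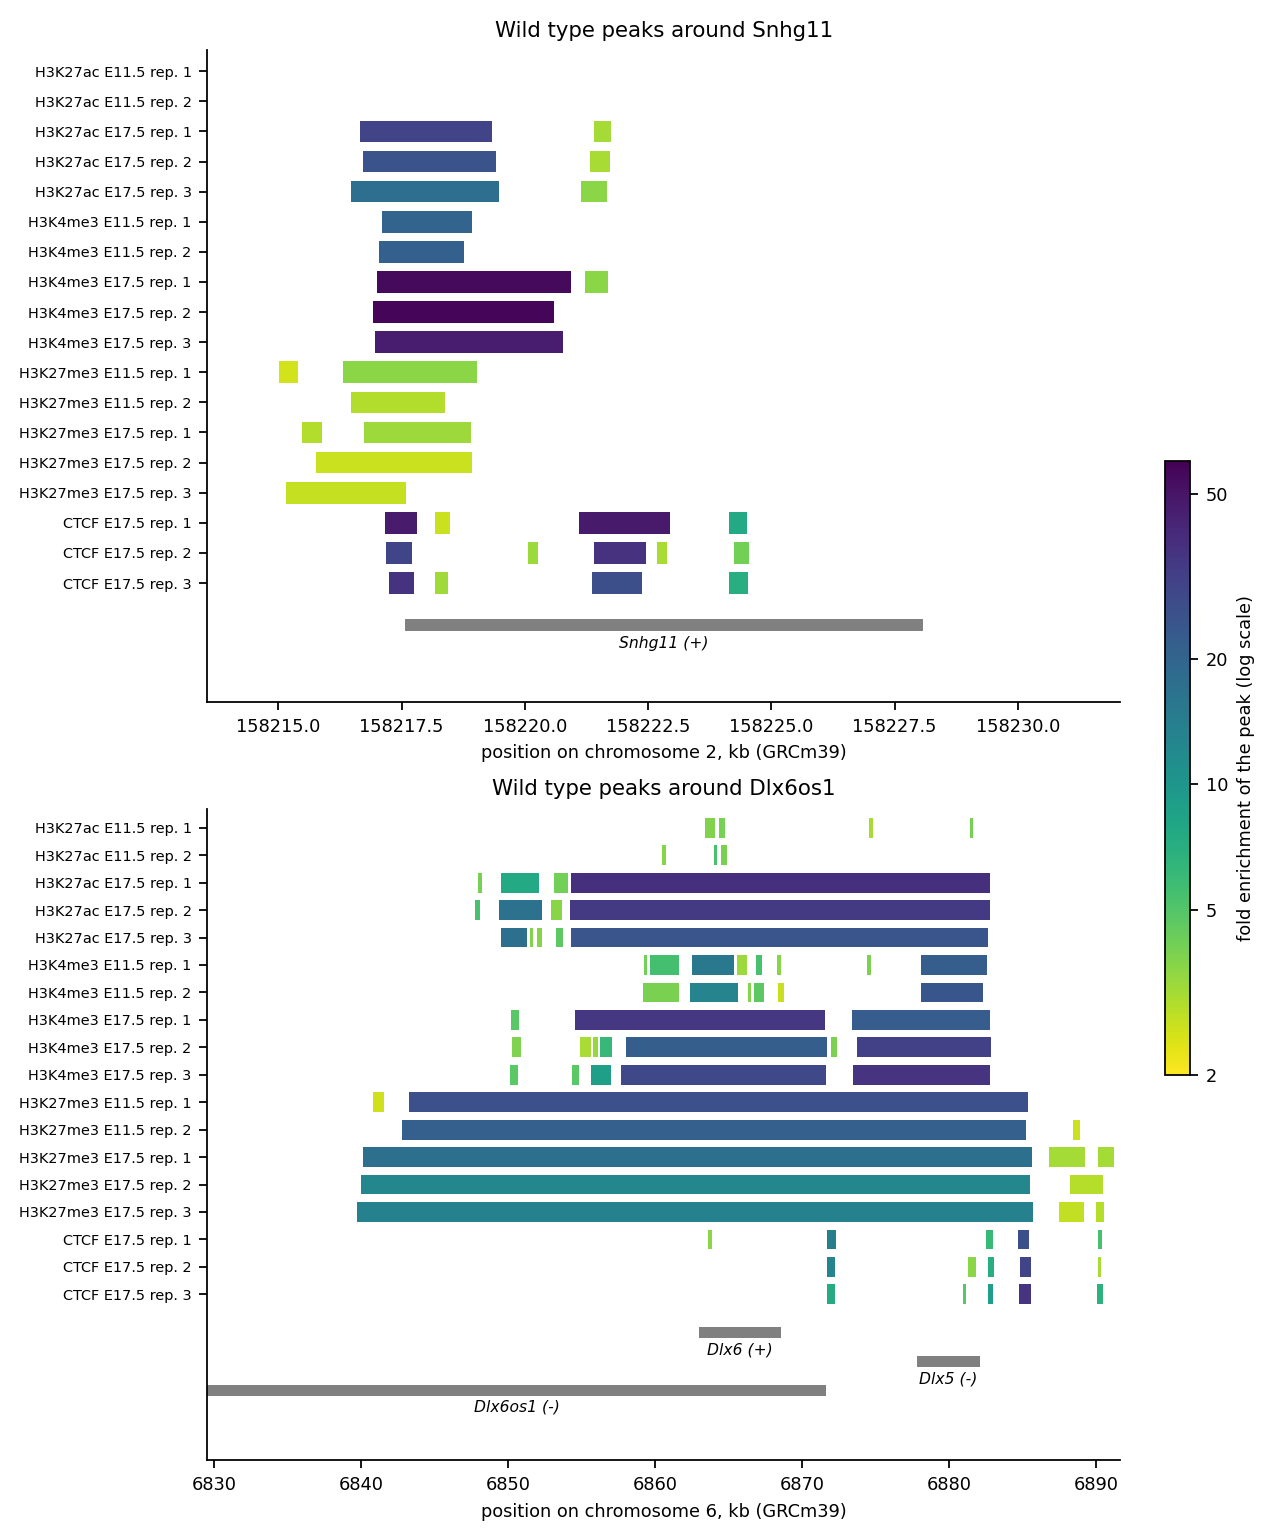
Wild type peaks around Snhg11 and Dlx6os1 by replicate, drawn to scale along GRCm39 positions in kb and coloured by fold enrichment on a log scale, with the genes in grey below. H3K27ac peaks over both promoters are present in the 3 replicates at E17.5 and in 0 of 2 at E11.5, and the broad H3K27me3 peak over Dlx6os1 is present at both stages.

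The other members had H3K27ac and H3K4me3 peaks at both stages. Mean H3K27ac enrichment went from 47.1 to 57.1 at Malat1, from 20.2 to 52.8 at Neat1, from 31.6 to 43.3 at Miat, from 34.5 to 50.0 at Sox2ot, from 20.2 to 40.1 at Rmst, from 39.6 to 35.2 at Pantr1 and from 17 to 37.7 at Gas5. The replicates of the 2 stages did not overlap for Neat1 (19.4 to 21.0 and 41.3 to 63.5), Sox2ot (29.7 to 39.3 and 49.2 to 51.6), Rmst (18.2 to 22.2 and 23.9 to 51.2), Miat (23.0 to 40.1 and 40.4 to 45.0) and Gas5 (16.2 to 17.8 and 29.3 to 44.4), and they overlapped for Malat1 and Pantr1. Mean H3K27ac enrichment was thus higher late at all of these members but Pantr1. Among them were Miat, whose RNA fell, and Gas5, whose RNA did not pass the test. These values were not tested, and the stage difference over all promoters was not computed. H3K4me3 enrichment at Neat1 was the lowest of these 7, with 11.1 and 11.9 and then 20.3 to 21.9, and means of the others lay between 47.1 and 70.4.

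H3K27me3 peaks were absent at Malat1, Neat1 and Gas5 in every list of each genotype. Pantr1 had 4.01 and 4.04-fold peaks at E11.5, 19034 to 20559 bp wide, and 6.42 to 8.08-fold peaks at E17.5, 38537 to 43040 bp wide. Sox2ot had 4.65 and 4.71 and then 7.11 to 9.05. At Miat and Rmst the peaks were weak, 3.12 to 3.55 and 3.00 to 3.45 at E11.5, and present in 2 of 3 replicates at E17.5, so 6 members would count there without replicate 3. With peaks at a -log10 q of at least 5, 3 members kept H3K27me3 at each stage (Sox2ot, Pantr1 and Dlx6os1). CTCF enrichment was highest at Sox2ot (36.4 to 48.1) and Snhg11 and lowest at Malat1 (2.59 to 5.80) and Pantr1 (3.16 to 5.56), and 3 members had it when the 5′ end alone was used.

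Several of these peaks are shared with the coding neighbour. The strongest H3K27ac and H3K4me3 promoter peak of Sox2ot was also that of Sox2 in all wild type replicates, and it lies over an internal start. At the 5′ end of Sox2ot itself, H3K27ac was absent early and had 6.06, 7.07 and 6.30-fold enrichment late, with H3K4me3 of 4.38 and 3.10 and then 3.27, 4.56 and 3.60, and H3K27me3 of 4.06 and 3.85 and then 5.04, 4.95 and 4.90. Pantr1 and Pou3f3 shared their strongest H3K27ac and H3K27me3 peaks in all replicates, and the H3K4me3 peak in 2 of 2 early and 2 of 3 late replicates. Gas5 and Zbtb37 shared those of H3K27ac and H3K4me3 in all replicates, while their RNA differed in stage calls. Neat1, Snhg11 and Rmst shared no strongest peak with their listed neighbour.

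The humanized lists gave 7 and 9 members with H3K27ac in every replicate (62.4% and 69.5% of 18713 genes), 8 and 9 with H3K4me3 (78.2% and 78.0%), 6 and 4 with H3K27me3 (25.3% and 20.5%) and 5 with CTCF (39.3%). The differences from wild type were Dlx6os1 for H3K4me3, with a peak in 1 of 2 replicates at E11.5, and Malat1 for CTCF, with a peak in 2 of 3. Miat, without a CTCF peak in wild type lists, had 1 in 1 of 3 humanized replicates. At Snhg11 the humanized E17.5 H3K27ac peaks had 32.1, 27.7 and 19.5-fold enrichment, and at Dlx6os1 33.3, 30.0 and 22.8.

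Promoter sequences of 300 bases, 250 before to 50 after the start, were taken from a table of RefSeq promoters for GRCm39 in which 5 members have an entry and Neat1, Sox2ot, Rmst and Pantr1 were not found by name. Those of Snhg11 and Dlx6os1 are shown because H3K27ac covered them at E17.5 in 3 of 3 wild type replicates and at E11.5 in 0 of 2, that of Miat because its RNA fell while the mark was present at both stages, and that of Gas5 because 184 of its bases are also in the promoter entry of Zbtb37 on the other strand. Capitals mark CG, which reads the same on both strands and occurs at least once in 94.6% of the 32851 promoters of that length, with a median of 7. Snhg11 (chr2:158217383-158217682, plus strand) holds 21 CG with a GC content of 60%, Dlx6os1 (chr6:6869484-6869783, minus strand) 5 with 35.7%, Miat (chr5:112376765-112377064, minus strand) 25 with 64.3%, and Gas5 (chr1:160862486-160862785, plus strand, the second of its entries) 19 with 62.0%. Fewer CG than these were found in 75.2%, 38.0%, 81.6% and 71.9% of promoters. The ratio of observed to expected CG was 0.779, 0.525, 0.807 and 0.672, and 33.5% of promoters have a GC content of at least 50% with a ratio of at least 0.6. The presence of these letters is a description and not a binding site.
Snhg11: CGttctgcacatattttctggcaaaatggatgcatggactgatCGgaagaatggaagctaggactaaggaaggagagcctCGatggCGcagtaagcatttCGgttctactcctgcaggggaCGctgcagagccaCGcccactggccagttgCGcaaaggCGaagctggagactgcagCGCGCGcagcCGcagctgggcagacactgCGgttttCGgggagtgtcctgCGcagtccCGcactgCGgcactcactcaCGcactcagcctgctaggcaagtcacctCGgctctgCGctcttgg
Dlx6os1: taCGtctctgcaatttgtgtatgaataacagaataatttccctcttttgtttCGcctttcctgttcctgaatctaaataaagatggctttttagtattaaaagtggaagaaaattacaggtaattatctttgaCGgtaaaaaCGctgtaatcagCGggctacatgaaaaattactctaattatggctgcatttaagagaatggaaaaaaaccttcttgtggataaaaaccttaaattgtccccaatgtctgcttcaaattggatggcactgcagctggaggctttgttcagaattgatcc
Miat: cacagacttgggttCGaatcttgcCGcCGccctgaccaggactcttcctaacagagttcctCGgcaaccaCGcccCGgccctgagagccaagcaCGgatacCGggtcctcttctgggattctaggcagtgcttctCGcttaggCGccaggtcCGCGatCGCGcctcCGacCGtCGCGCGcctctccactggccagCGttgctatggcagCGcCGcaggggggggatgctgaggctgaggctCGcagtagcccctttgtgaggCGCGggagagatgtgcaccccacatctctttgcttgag
Gas5: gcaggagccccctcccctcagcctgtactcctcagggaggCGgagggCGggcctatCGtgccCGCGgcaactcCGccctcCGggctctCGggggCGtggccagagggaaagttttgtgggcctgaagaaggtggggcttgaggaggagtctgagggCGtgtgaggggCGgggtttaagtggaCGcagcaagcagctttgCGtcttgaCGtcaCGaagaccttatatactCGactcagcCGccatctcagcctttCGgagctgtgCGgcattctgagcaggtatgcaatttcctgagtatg

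The genes most like each member were sought among 16266 genes with a mean of at least 1 CPM, by Pearson's r of log2 sense-strand CPM over the 16 samples after each group's mean was subtracted, as a description without a p. These points share libraries and depth, and wild type E17.5 replicate 1 carries much of the spread, so r is also given over the 15 samples without it. Snhg11 was most like Clpx (r = 0.981, and 0.948 without it), Chuk and Cblb, and Rmst like Cd46 (0.987 and 0.966), Zcchc9 and Tceanc. Among the genes close to Sox2ot were Zkscan2 (0.984 and 0.941) and Gm48804. Gas5 was most like Med21 (0.982 and 0.950), Rsrp1 and Uqcrb, and Miat like AI480526 (0.973 and 0.911), Ovgp1 and Gm33148. For Neat1 the genes were 5430416N02Rik (0.961 and 0.889), Hnrnpk (0.951 and 0.845) and Tceanc, and for Malat1 Wtap (0.947 and 0.879), Gm45110 and Tmem87a. Hnrnpk was also on the list of protein partners. Dlx6os1 was most like Col19a1 (0.931 and 0.846), Gjd2os and Mkx, and Pantr1 like Uros (0.919 and 0.864), Krt1 and Nsdhl. The 27 values lay between 0.887 and 0.987 over 16 samples and between 0.756 and 0.966 without that library. Between members, Rmst and Gas5 gave 0.94 (0.82 without it), Neat1 and Rmst 0.93 (0.79) and Sox2ot and Snhg11 0.93 (0.8). Pantr1 was negative with all other members over 16 samples, from -0.78 with Malat1 (-0.6 without that library) to -0.38 with Gas5 (0.31), and without that library its sign turned for Gas5, Miat, Rmst, Neat1 and Dlx6os1.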

How the data were processed

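The members and gene lists were chosen with earlier results of these data known. The authors deposited raw counts of read pairs per gene (STAR 2.7.9a, mm39, basic GENCODE annotation), unstranded and per strand. Lines without a gene held 48.1% to 58.4% of the reads and were left out of library sizes. For chromatin, the authors (Bowtie2 2.4.2, MACS2 2.2.7.1) deposited peak lists per replicate with a score derived from q, the fold enrichment (a ratio over local background), and the -log10 of p and of q. Peaks of H3K27me3 are in broad-peak form, with q up to 0.1. The H3K27ac antibody lot also binds H2BK5ac, by the study's text.

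Counts passed edgeR's filterByExpr, were TMM-scaled, and the quasi-likelihood test of edgeR 4.0.16 (with limma 3.58.1 under R 4.3.3) was run on the 8 samples of each comparison, or all 16 for the interaction, with Benjamini-Hochberg adjustment. Likeness used log2 CPM with a prior count of 2. Positions came from GENCODE M39, which matched 98.8% of the gene identifiers. Peaks and tables were handled with Python 3.11.15, NumPy 2.4.6 and pandas 2.3.3, and figures with matplotlib 3.10.9. Alternatives were DESeq2 1.42.0, its size factors, no filter, sense-strand counts, 1 joint model of all 16 samples, blocking by replicate number, leaving out each replicate, and for peaks other windows, starts, thresholds and overlaps.

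Named genes are the 9 members, every listed coding neighbour, from each other list up to 4 genes with the largest absolute log2 difference among those called in the same direction in both stage comparisons, and for each member the 3 genes most like it, and not every gene that this rule selects is printed.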

Additional observations from a re-analysis of the deposited data

Results flagged for a closer look

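Groups of 4 replicates were searched for a lowest or highest sample far from the others, judged by its gap to the nearest one over the group's range. Of 143 groups examined 11 were past the limit, where chance gives about 1 in 20, or 7.2. Among the 72 groups of levels 3 were past it, which is fewer than 1 in 20. All 3 were wild type E17.5 replicate 1: Miat on the sense strand at 257.3 CPM, and Sox2ot at 20.5 CPM unstranded and 19.9 CPM on the sense strand, each the lowest of its group. The Sox2ot values count largely the same reads of that library.

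The other 8 concern the strand shares. The sense share was lowest at 98.3% for Neat1 in humanized E11.5 replicate 2, at 98.8% for Neat1 in wild type E17.5 replicate 2, at 99.5% for Sox2ot in humanized E17.5 replicate 3, at 99.6% for Dlx6os1 in humanized E11.5 replicate 4 and at 99.5% for Snhg11 in humanized E11.5 replicate 2. As a share of the sense-strand count, the unstranded count was highest at 100.5% for Sox2ot in humanized E17.5 replicate 3 and at 100.5% for Snhg11 in humanized E11.5 replicate 2, and lowest at 96.5% for Pantr1 in humanized E17.5 replicate 3. For Neat1, 1 antisense read set each of these shares.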

How the results depend on the processing

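Of the 126 member values of the wild type stage comparison over 14 alternatives, 117 kept their sign and side of the threshold, 3 gained a call, 5 lost it and 1 changed sign. In humanized RNA these were 118, 1, 0 and 7. Members higher in wild type RNA ranged from 1 to 5 when each replicate was left out, and genes called from 9147 to 13994. The coding neighbours named in the text kept 108 of 112 values in wild type and 105 of 112 in humanized RNA, and other listed genes 220 and 223 of 224. Some of these settings drop samples or change which genes are tested, and others change the model or the scaling. The cause of each change was not tested.

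Genotype at E11.5 gave 2 genes by DESeq2 and 1 in the fit of all 16 samples, and 1 by DESeq2 at E17.5. With 1 library left out, edgeR put 401 to 3963 genes at an unadjusted p under 0.05 for genotype at E11.5. The same count ran from 82 to 750 for genotype at E17.5 and from 688 to 3749 for the interaction, with 0 called in each fit. The Gas5 stage difference in humanized RNA was 0.02 by DESeq2, 0.06 with its size factors in edgeR, 0.00 in the fit of all 16 samples, 0.03 in the sense-strand column, and -0.13 to 0.15 with a replicate left out. Other leave-one-out ranges that crossed 0 were -0.44 to 0.05 for Gas5 in wild type RNA. For genotype at E11.5 they were -0.21 to 0.01 for Neat1 and -0.07 to 0.00 for Pantr1, which was 0.00 in the fit of all 16 samples. At E17.5 they were -0.09 to 0.45 for Neat1, 0.00 to 0.41 for Sox2ot, -0.11 to 0.40 for Gas5 and -0.06 to 0.43 for Snhg11. The interaction gave -0.02 to 0.50 for Neat1 and -0.07 to 0.43 for Gas5. H3K27me3 at E11.5 counted 3 members at a -log10 q of at least 5, and CTCF 3 with the 5′ end alone.

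With the replicate number as a block, 9466 genes were called in wild type and 14454 in humanized stage comparisons, against 10356 and 14601 without it, and 2 and 5 members were higher. The labels do not say that replicate numbers pair samples, and each sample was most like the same number of the other group in 0 to 2 of 4 cases. The 2 were in genotype at E17.5, where same-number r was 0.466, 0.484, 0.051 and 0.154 and the block raised genes at an unadjusted p under 0.05 from 207 to 717, with 0 called by edgeR either way. The interaction is itself a fit of all 16 samples, so that alternative was not run for it.

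Depth limits Neat1, with 25 to 161 reads per sample. Likeness and correlation between members without wild type E17.5 replicate 1 were chosen after seeing the data. Without it 11 correlations between members changed sign, to -0.2 for Malat1 with Neat1, -0.15 with Miat and -0.23 with Gas5, to -0.19, -0.15 and -0.16 for Dlx6os1 with Neat1, Miat and Snhg11, and to 0.13, 0.18, 0.15, 0.13 and 0.31 for Pantr1 with Neat1, Miat, Rmst, Dlx6os1 and Gas5.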
